A study of Danio rerio with 9 samples.

Results

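Impurity S is a related substance of azithromycin, a macrolide antibiotic, and its pathway table was taken whole. The table compares the liver of zebrafish larvae given impurity S with that of larvae given DMSO, and every row of its 3 databases and every distinct gene named in a row were taken, with genes matched by Entrez identifier. It holds 894 pathway rows of the 7048 in the 8 compound tables of the series, of which 713 are from Reactome, 139 from KEGG, and 42 from PANTHER. The rows name 427 distinct genes, or 37.0% of the 1154 named in any of the 8 tables. Of the 1154 genes, impurity S listed 208, or 18.0%, as upregulated and 219, or 19.0%, as downregulated, so 48.7% of its genes were upregulated.

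The study predicted the liver toxicity of azithromycin and its impurities by computation, and examined azithromycin and 7 of these impurities in experiments. Both libraries compared here came from wild-type AB larvae, which were exposed for 72 h from 3 dpf to 6 dpf, and had their livers dissected for total RNA with TRIzol. The treated larvae received impurity S at 2 mM and the controls received DMSO, the solvent, and 1 library was sequenced per condition. The number of larvae pooled per library is not given in the sources used here, and for the DMSO library no separate file was analysed here. The deposited table gives, for each pathway, the genes that passed the study's threshold, a fold change of 2 that its methods state for upregulated genes, and their direction. It gives no expression level and no fold size, so the depth of the libraries is unknown, no replicate check or test was possible, and "upregulated" and "downregulated" below mean listed as such for impurity S. A gene that belongs to no pathway of the 3 databases has no row, so for a gene that is not listed, a difference under the threshold and a lack of annotation cannot be told apart.

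The larval zebrafish liver becomes functional within the days of this exposure. Its hepatocytes make glucose from pyruvate and amino acids, oxidize fatty acids, secrete plasma proteins such as fibrinogen, convert cholesterol to bile acids, and modify drugs by oxidation and conjugation. The liver lies against the intestine and the pancreas, and a bulk dissection can hold RNA of each of them. In such bulk tissue, fewer cells of a type and less RNA per cell cannot be told apart.

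Genes of glucose synthesis were mostly downregulated. The Reactome term Gluconeogenesis held 5 of its 18 background genes, or 27.8%, and all 5 were downregulated. They were *pcxb*, a pyruvate carboxylase that starts the route by making oxaloacetate, *mdh1aa*, a cytosolic malate dehydrogenase, *got1*, a cytosolic aspartate aminotransferase, *gapdh*, which works in both directions of the route, and *fbp1b*, a fructose bisphosphatase that commits carbon to glucose. The background for these shares is 5.78%, the share of the 18311 background genes that the 1058 genes behind the table make up. Of the 1058 genes, 40.4% had a row. Counted as gene and term pairs, the listed share was higher, at 7.63% in KEGG and 6.96% in Reactome. *pcxb* and *fbp1b* were listed for no other compound. *gapdh* was upregulated for impurities Q and L, *got1* was also downregulated for impurity I, and *mdh1aa* was also downregulated for every other compound except impurity J, which did not list it. The wider Reactome term Glucose metabolism held 6 genes, the additional one being *pfkfb3*, which sets the level of an activator of glycolysis, and all 6 were downregulated. In the other 7 tables the same term held 1 or 2 upregulated genes for impurities I, Q, R, L, and F and none for azithromycin and impurity J, and 2 to 4 downregulated genes for each. The KEGG term Glycolysis / Gluconeogenesis, which also takes in lactate and aldehyde enzymes, held 4 downregulated and 3 upregulated genes.

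The pyruvate and carbon metabolism terms held more downregulated than upregulated genes. The KEGG term Pyruvate metabolism held 8 of 37 genes, or 21.6%, with 5 downregulated and 3 upregulated. Besides *pcxb* and *mdh1aa*, the downregulated members were *pdha1a*, the alpha subunit of pyruvate dehydrogenase, *hagh*, a glyoxalase pathway hydrolase, and *acss2*, an acetyl-CoA synthetase. The upregulated members were *ldhbb*, a lactate dehydrogenase, and the aldehyde dehydrogenases *aldh9a1a.1* and *aldh9a1b*. In the other tables Pyruvate metabolism held 1 to 5 upregulated and 1 to 7 downregulated genes. Its numbers ranged from 5 upregulated and 1 downregulated for impurity I to 2 and 7 for impurity F. The KEGG term Carbon metabolism held 11 of 112 genes, and 9 of them were downregulated, among them *idh3g*, a subunit of isocitrate dehydrogenase, and *cat*, the catalase of peroxisomes. The 2 upregulated genes were *hao2*, a hydroxyacid oxidase, and *prps1a*, which makes the ribose precursor of nucleotides. For the other compounds the same term held 3 to 7 upregulated and 3 to 6 downregulated genes.

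Xenobiotic and bile acid enzymes were one-sided in a Reactome term, while the gene lists held both directions. The term Biological oxidations held 9 of 101 genes, or 8.91% against the background of 5.78%, and all 9 were downregulated. Among them were *cyp7a1*, the rate-limiting enzyme of the classic route to bile acids, and *cyp27a7*, named *cyp27a1.1* by RefSeq, a sterol side-chain hydroxylase by its mammalian relative. Neither was listed for another compound. The conjugation members were *ugt1ab*, a glucuronosyltransferase, *slc26a2*, a sulfate transporter, *oplah*, an oxoprolinase of the glutathione cycle, *cndp2*, a dipeptidase, and *abhd10a*, which removes glucuronide groups in mammals. In the other 7 tables the term held 2 to 5 upregulated and 2 to 5 downregulated genes. Outside this term, the glutathione transferase *gsta.2* and the quinone reductase *nqo1* were downregulated, whereas the glutathione transferase *gsto2* was upregulated in all 8 tables. Over the list of cytochrome P450 and conjugation enzymes, 8 of the 25 members found in any table were listed, with 3 upregulated and 5 downregulated. Besides *gsto2*, the upregulated members were *aldh9a1a.1* and *aldh9a1b*. These are aldehyde dehydrogenases, neither cytochrome P450 nor conjugation enzymes, so the upregulated side of the list rests largely on them. The list's share of 32.0% is below the 37.0% of all 1154 genes that impurity S listed.

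Carriers and lipid genes were listed in both directions. The Reactome term SLC-mediated transmembrane transport held 11 of 120 genes, or 9.17%, of which 6 were upregulated and 5 downregulated. The organic anion carriers *slc22a7b.3* and *slc22a6l*, the copper carrier *slc31a1*, and the amino acid carrier *slc6a19a.1* were downregulated. The organic anion carrier *slco1c1*, the nucleotide sugar carriers *slc35a1* and *slc35a3a*, the ion carriers *slc9a7* and *slc12a3*, and the nuclear pore gene *nup188* were upregulated. Outside this term, the KEGG term ABC transporters held 4 of 31 genes, or 12.9%. Its member *abcb11a*, a bile salt export pump homolog, was upregulated, and *abcc1*, *abca1a*, and *abcg4a* were downregulated. Of 34 fatty acid and glycerolipid genes in any table, 10 were listed, 7 downregulated and 3 upregulated. This share of 29.4% is below the 37.0% of all genes. The downregulated ones were *acadvl*, which begins the oxidation of very long fatty acids, *acsl5* and *acss2*, which activate fatty acids and acetate, *fabp1b.1*, a fatty acid binding protein, *lpin1*, a phosphatidate phosphatase, *dgkza*, a diacylglycerol kinase, and *asah2*, a ceramidase. *scd*, which desaturates stearoyl-CoA, the diacylglycerol kinase *dgkaa*, and *pld3*, a member of the phospholipase D family, were upregulated. Of these 10 genes, *lpin1* was downregulated for every one of the 8 compounds, while *acadvl*, *asah2*, and *fabp1b.1* were listed for impurity S alone. The sterol list was divided, with *hmgcs1*, an early enzyme of cholesterol synthesis, and *npc2*, a lysosomal cholesterol carrier, upregulated and the bile acid enzymes *cyp7a1* and *cyp27a7* downregulated.

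Of 26 members of the amino acid and nucleotide list found in any table, 8 were listed, and all 8 were downregulated. The share of 30.8% is below the 37.0% of all genes, and the wider Reactome term Metabolism of amino acids and derivatives, with 12 of 125 genes, held 6 upregulated and 6 downregulated genes. The list members included *bcat2*, the mitochondrial branched-chain aminotransferase, *tdo2a*, the dioxygenase that opens the tryptophan ring, *got1*, *rrm2*, a ribonucleotide reductase subunit, and *ak1*, an adenylate kinase. The other members were *entpd8*, which splits extracellular nucleotides, *polr1e*, a subunit of RNA polymerase I, and *ahcyl2*, a relative of adenosylhomocysteinase. In the other tables this list held 1 to 6 upregulated and 3 to 7 downregulated members. The net number of upregulated genes for impurity S went from -8 to -6 with unfiltered list matches, so the single direction depends on that filter. The list does not hold all such enzymes, and glutamine synthetase *glulb*, the purine salvage enzyme *hprt1*, and *prps1a*, which are not on it, were upregulated. The KEGG term Tryptophan metabolism held 7 of 44 genes, or 15.9%, in which the oxidases *aox6* and *aoc1*, *tdo2a*, and *cat* were downregulated, and the aldehyde dehydrogenases *aldh9a1a.1* and *aldh9a1b* and the aminotransferase *ccbl2* were upregulated.

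**Figure D1:**
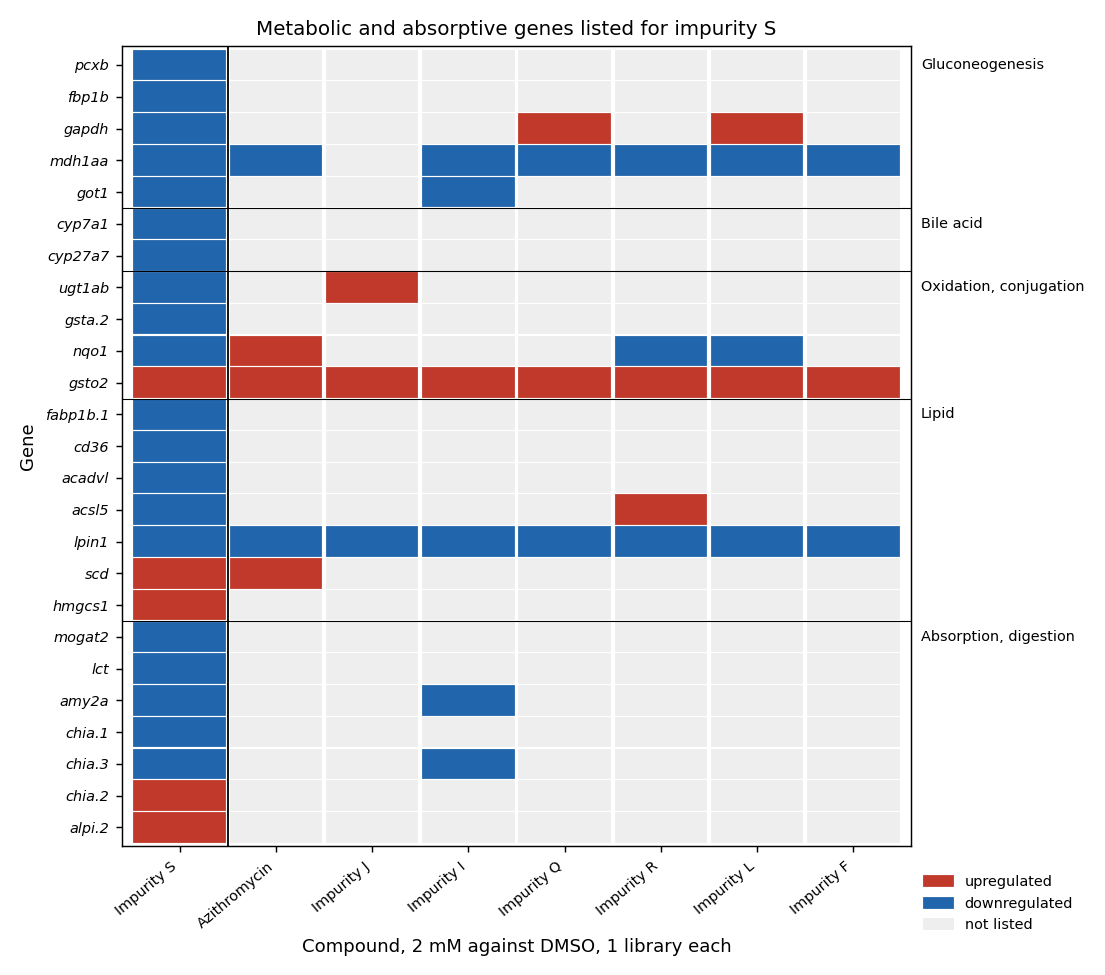
Direction of metabolic and absorptive genes for impurity S (left column) and the other 7 compounds, each at 2 mM against the same DMSO library (1 library per compound). Red marks an upregulated gene, blue a downregulated gene, and grey a gene that the table does not list. All 5 gluconeogenesis genes are blue for impurity S, and *pcxb*, *fbp1b*, *cyp7a1*, and *cyp27a7* are grey in every other column.

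Genes of nutrient uptake and digestion were also among those listed, and were grouped after their directions were seen. Downregulated were *slc6a19a.1*, a carrier of neutral amino acids, *mogat2*, which rebuilds triglycerides from monoglycerides, *cd36*, a fatty acid receptor, *lct*, the lactase gene, *amy2a*, a pancreatic amylase, and the chitinase genes *chia.1* and *chia.3*. The chitinase gene *chia.2* and the alkaline phosphatase gene *alpi.2* were upregulated. The table has no symbol for the gene with Entrez identifier 393400, which RefSeq names *amy2al1*, a second amylase gene, and which was upregulated. Apart from *amy2a* and *chia.3*, which were downregulated for impurity I as well, none of these genes was listed for another compound. Genes outside the group, such as *foxo4*, *grin2ab*, and *jun*, were also listed for impurity S alone. Whether such listings were more frequent in the group was not tested. Of 7 intestinal marker genes, 1 was named in any table, *chia.1*, and it was listed here. Of 17 exocrine pancreas markers, 2 were named in any table and *amy2a* was listed here. Of 5 endocrine pancreas markers, 1 was named in any table, *gcga*, the glucagon precursor, which was upregulated. The part of neighbouring tissue in these listings was not tested.

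The tissue label rests on few genes in this table. Of 24 hepatocyte markers, 5 were named in any table and 3 were listed for impurity S, the fibrinogen chains *fga* and *fgb* as upregulated and the protease inhibitor *serpina1* as downregulated. *fga* was listed for no other compound, and *fgb* was upregulated for azithromycin and impurities J, Q, R, L, and F and downregulated for impurity I. The hepatocyte gene *fabp10a* was not listed. Of 29 muscle markers, 8 were named in any table and 5 were listed, with *mylpfb* and *tnnt3b* upregulated and *mylpfa*, *tpm2*, and *tpma* downregulated. The skin marker *cyt1* was upregulated, and the markers of erythroid cells, leukocytes, neural cells, and lens were named in none of the 8 tables, so none could be listed. No table held an endothelial marker under the symbols used, which included *tie2*. The same gene stood in the tables as *tek*, which was upregulated for impurity S and for impurities J, Q, R, and L. As the table holds no levels, it does not show how much of any tissue the dissected livers held.

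Innate immune and cell death pathways listed mostly upregulated genes. The KEGG term NOD-like receptor signaling pathway held 7 of 39 genes, or 17.9%, of which 6 were upregulated. Among these were the cytokine *il1b*, the caspase *casp8l2* (named *casp10* by RefSeq), the ubiquitin ligase *birc2*, the kinase *chuk*, and the chaperone *hsp90aa1.2*. The downregulated member was *hsp90ab1*, the constitutive cytosolic form of the same chaperone. In the Toll-like receptor term, 6 of 7 genes were upregulated, adding *tlr5b*, a receptor for flagellin, and *jun*, an AP-1 subunit. The downregulated gene there was *pik3r1*, the regulatory subunit of phosphoinositide kinase. Salmonella infection held 13 of 82 genes, or 15.9%, with 10 upregulated, and Apoptosis held 13 of 149, or 8.72%, with 10 upregulated.

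These pathways are not separate findings, because the same genes recur in them. Salmonella infection, Apoptosis, Cytosolic DNA-sensing, and the NOD-like and Toll-like receptor terms together named 28 distinct genes in 45 gene and term pairs, 19 genes upregulated and 9 downregulated, and 9 genes stood in more than 1 of the 5 terms. The DNA-sensing term held both directions within a single cascade. *mb21d1*, the cytosolic DNA sensor cGAS, was upregulated, while *tmem173*, its downstream adaptor STING, and *mavs*, the adaptor of the RNA sensors, were downregulated. In the Apoptosis term the other 7 compounds had 1 to 6 upregulated and 5 to 9 downregulated genes, against 10 and 3 for impurity S. In the NOD-like receptor term they had 0 to 4 upregulated and 0 to 3 downregulated genes. In the Toll-like receptor and Salmonella terms some compounds had numbers near those of impurity S, since impurity L had 6 upregulated and 2 downregulated Toll-like receptor genes, and Salmonella infection had 8 and 3 for impurity L and 9 and 5 for impurity F. These differences were not tested, and the 8 comparisons share 1 DMSO library.

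Single immune genes followed several patterns across the compounds. *il1b* was also upregulated for impurity L and was listed for no other compound. *chuk*, which activates NF-kappaB signaling, *jun*, *b2m*, the light chain of MHC class I, and *hsp90aa1.2* were listed for impurity S alone, as was *mavs* in the downward direction. *casp8l2* was downregulated for impurities I and L. *birc2* was upregulated for impurities R, L, and F, and the tables of azithromycin and of impurities J and Q had it as downregulated. *tlr5b* was downregulated for azithromycin and upregulated for impurities I, Q, R, and F. Over the whole immune signaling list, 7 of 16 members were listed, or 43.8% against 37.0% of all genes. Of these, 4 were upregulated and 3 downregulated, so that the list was less one-sided than the pathway terms. Of the AP-1 family, *jun* was upregulated, *mafga* was downregulated, and *fosab* was not listed, and no member of the immediate-early list, which leaves out the AP-1 genes and has 8 members in any table, was listed for impurity S.

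**Figure D2:**
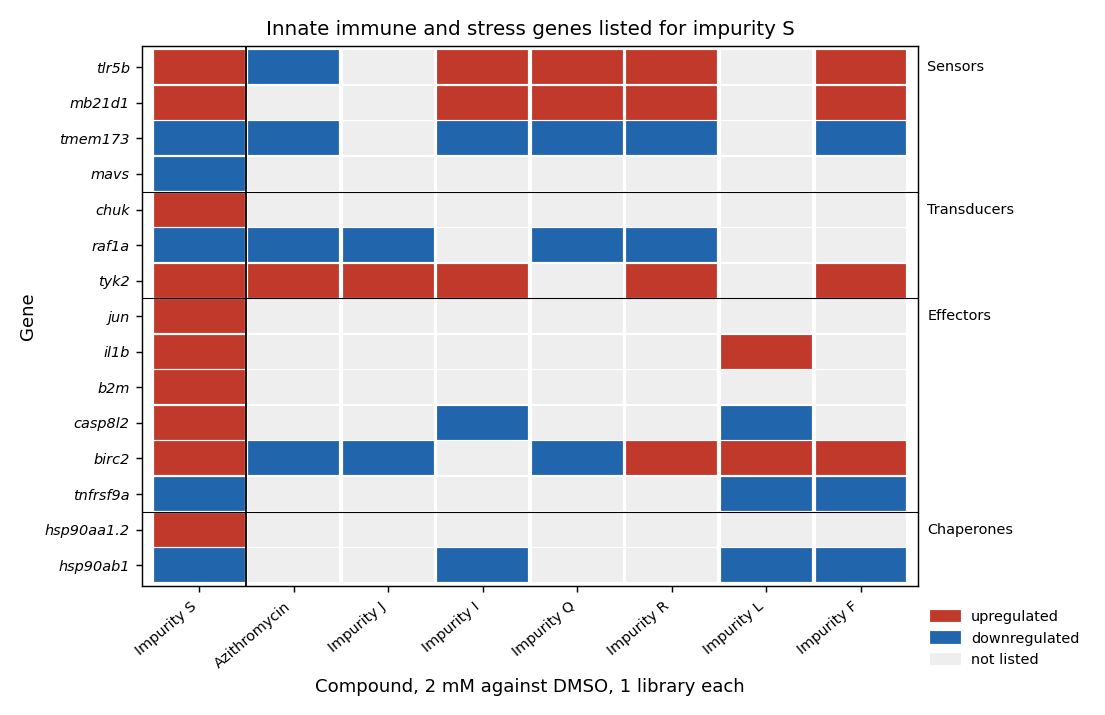
Direction of innate immune and stress genes for impurity S (left column) and the other 7 compounds at 2 mM against the same DMSO library, with 1 library per compound. Red is upregulated, blue downregulated, and grey not listed. *chuk*, *jun*, *b2m*, and *hsp90aa1.2* are red for impurity S and grey elsewhere, while *mb21d1* is red and *tmem173* blue for impurity S and for impurities I, Q, R, and F.

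The lysosome and endocytosis list was evenly divided, while the Lysosome and Phagosome terms held mostly upregulated genes. Of 28 list members found in any table, 12 were listed, or 42.9% against 37.0% of all genes, 6 upregulated and 6 downregulated. The KEGG term Lysosome held 6 of 121 genes, which at 4.96% is below the background share of 5.78%. The cathepsins *ctsl.1* and *ctsla*, the cholesterol carrier *npc2*, the adaptor subunit *ap4s1*, and the sorting receptor *sort1a* were upregulated, and the thioesterase *ppt2* was downregulated. Phagosome held 10 genes of 130, of which 8 were upregulated, including the early endosome regulator *rab5aa* and the matrix protein *thbs1b*. Phagosome held more upregulated than downregulated genes in every other table too, with 3 to 10 upregulated and 1 to 3 downregulated. Endocytosis, with 27 of 285 genes, was divided into 12 upregulated and 15 downregulated genes.

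Ribosomal protein genes were listed often and in both directions. The KEGG term Ribosome held 18 of 112 genes, or 16.1%, of which 9 were upregulated and 9 downregulated. Of the 34 cytosolic ribosomal protein genes found in any table, 17 were listed, or 50.0% against 37.0% of all genes. The upregulated genes included *rpl6*, *rpl7a*, *rpl15*, *rpl23a*, *rpl26*, *rpl34*, *rplp2*, and *rps2*. Downregulated were *rpl9*, *rpl10*, *rpl17*, *rpl21*, *rps8a*, *rps15a*, *rps18*, and *rps19*. In the Reactome term for translation initiation complex formation, *rps2* was the upregulated gene and *rps8a*, *rps15a*, *rps18*, and *rps19* were downregulated. The balance of the list, 1 more upregulated than downregulated gene, changes with the database, since Reactome rows alone gave a net of -3. How reads shared by similar sequences were counted for these genes is not given in the sources used here.

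RNA handling genes, where listed, were mostly upregulated. Of 25 splicing and RNA processing genes found in any table, 8 were listed, 6 upregulated and 2 downregulated, a share of 32.0% that is below the 37.0% of all genes. RNA transport held 11 of 131 genes, or 8.40%, 9 of them upregulated, among them *ran*, the small GTPase of nuclear transport, the nuclear pore genes *nup188* and *aaas*, and the poly(A) binding protein *pabpc1a*. The term held 7 to 10 upregulated and 1 to 5 downregulated genes in the other tables. In mRNA Splicing, *u2surp*, *srsf3b*, *snrpb2*, *hnrnpk*, and *hnrpkl* were upregulated and *srsf1a* was downregulated, which made 6 of 112 genes, or 5.36%, slightly below the background share of 5.78%. The Reactome term SUMOylation of RNA binding proteins held 6 of 21 genes, or 28.6%. Its upregulated members were *hnrnpk*, *hnrpkl*, *nup188*, and the Polycomb genes *phc2b* and *scmh1*. Its downregulated member *ube2ia* is the conjugating enzyme that attaches SUMO in this pathway. In the wider SUMOylation term, 7 of 8 genes were upregulated, including the SUMO ligase *pias1b* and the repair protein *xrcc4*. In the other tables SUMOylation held 2 to 7 upregulated and 0 to 3 downregulated genes. Upregulated genes were the more numerous there for every compound except impurity F.

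Genes of the secretory route formed a second set with high shares. ER to Golgi Anterograde Transport held 11 of 54 genes, or 20.4%, with 7 upregulated. These included *sec16b*, which organizes ER exit sites, *uso1*, a tether of transport vesicles, and *dync1i1* and *dctn3*, parts of the dynein motor complex. *tmed7*, a cargo receptor, *trappc5*, a tethering subunit, *dynll2a*, a dynein light chain, and the cargo *serpina1* were downregulated. Asparagine N-linked glycosylation held 18 of 123 genes, or 14.6%, 11 upregulated and 7 downregulated, whereas the other tables held 3 to 6 upregulated and 3 or 4 downregulated genes. The KEGG term Amino sugar and nucleotide sugar metabolism held 8 of 50 genes, or 16.0%, with 5 upregulated and 3 downregulated. The upregulated ones were *ugp2b*, *gale*, *uap1*, and *gnpnat1*, enzymes on the way to sugar donors for glycans, and *chia.2*. *chs1*, *chia.3*, and *cmah* were downregulated.

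Muscle and actin genes gave the term with the largest share among those with at least 5 listed genes. Smooth Muscle Contraction in Reactome held 6 of 17 genes, or 35.3%. The tropomyosin *tpm2*, the myosin light chains *mylpfa* and *myl12.1*, and the actin regulator *cald1b* were downregulated, and the light chains *mylpfb* and *myl6* were upregulated. *mylpfa* and *mylpfb* are fast skeletal muscle genes in zebrafish, so the term's name does not give the tissue. Over the striated muscle list, 10 of 21 members were listed, or 47.6% against 37.0% of all genes, 4 upregulated and 6 downregulated. The downregulated ones included the myosin heavy chains *myhz1* and *smyhc2* and the troponin *tnnt1*. Over the actin cytoskeleton list, 12 of 25 members were listed, or 48.0%, 5 upregulated and 7 downregulated. *actb1*, a beta-actin gene, was upregulated for impurity S and downregulated for the 5 other compounds that listed it, while *actb2* was not listed for impurity S. *rhoab*, a small GTPase that acts on actin, was downregulated together with *rhogd*, *wasla*, and *pak1*.

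Among genes named in any table, those of calcium and glutamate signaling were listed about as often as the whole set. Of 35 neuroactive receptor and calcium signaling genes found in any table, 13 were listed, or 37.1%, which is close to the 37.0% of all 1154 such genes. Of these, 10 were downregulated and 3 upregulated, and the list held more downregulated than upregulated genes in every other table too, from 3 and 6 for azithromycin and impurity J to 3 upregulated and 12 downregulated for impurity Q. Downregulated were, among others, the calmodulin kinases *camk2d1*, *camk2g2*, and *camk4*, the inositol trisphosphate receptor *itpr3*, and the metabotropic glutamate receptors *grm1a* and *grm3*. The upregulated members were *grin2ab*, an NMDA receptor subunit, *gria1b*, an AMPA receptor subunit, and *gnb3b*, a G protein subunit. In the KEGG term Calcium signaling pathway, 6 of 7 listed genes were downregulated, and the share of 3.55% was below the background share.

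Hormone and growth signals were represented by few genes. *gcga*, which encodes glucagon in the pancreas and related peptides in the intestine, was upregulated for impurities S and Q. The leptin gene *lepb* was upregulated for impurity S and downregulated for azithromycin, and the leptin receptor *lepr* was downregulated for all 8 compounds. *igfals*, a liver-secreted carrier of insulin-like growth factors, and *foxo4*, a transcription factor restrained by insulin signaling, were downregulated and listed for impurity S alone. Among Wnt, Notch, and TGF-beta genes, the receptor *notch3*, the receptor *bmpr1ab*, and the signal transducer *smad2* were upregulated, and *tcf7l1a*, a Wnt effector, was downregulated. The KEGG term Hedgehog signaling pathway held 6 of 51 genes, of which 5 were downregulated, including *gpr161* and *csnk1a1*. The general transcription factor subunits *taf6*, *taf9*, and *taf12* and the kinases *dyrk2* and *ck2a1* were downregulated.

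**Figure D3:**
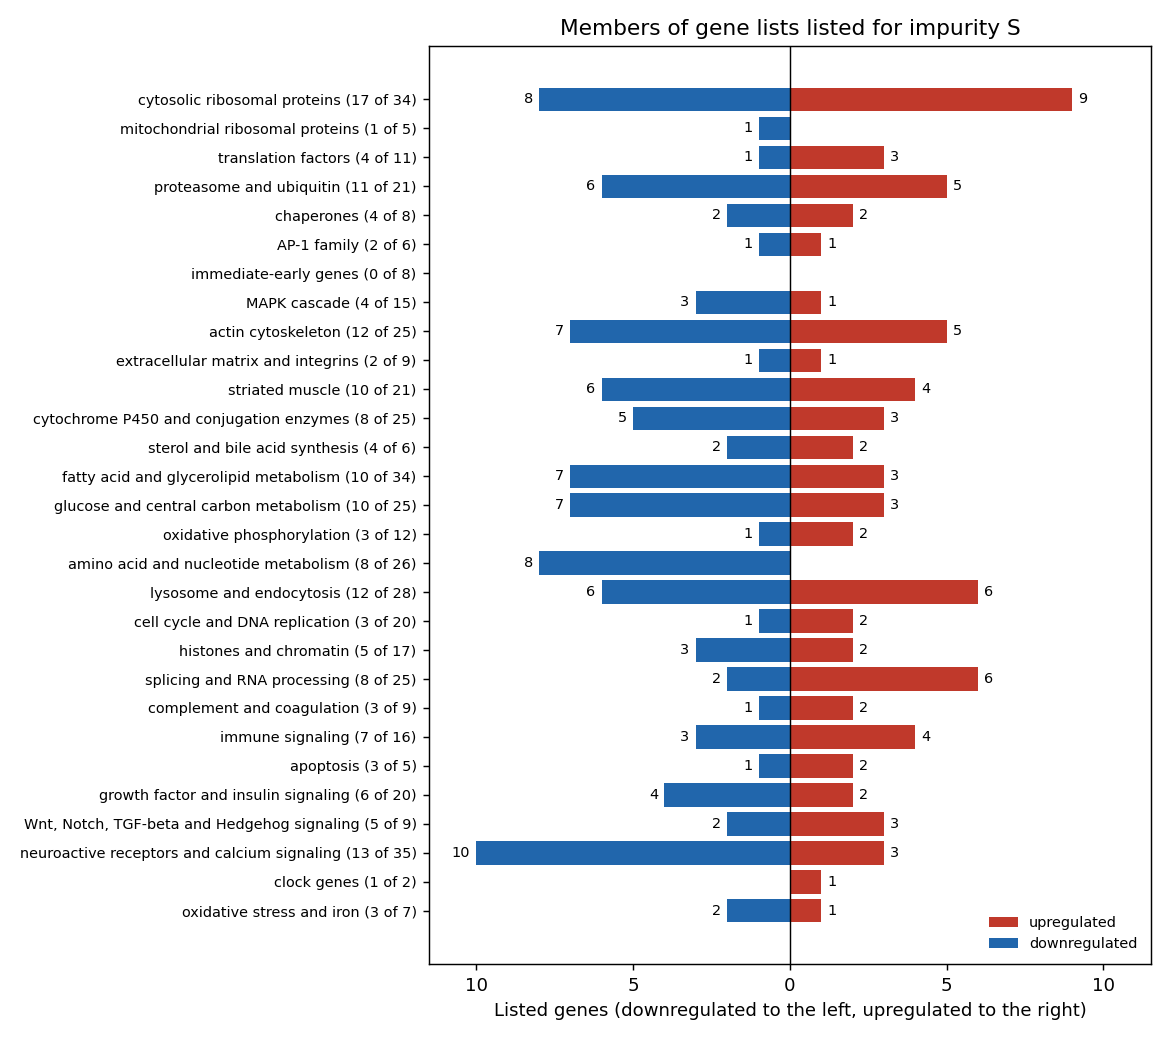
Number of genes listed for impurity S in each of 29 gene lists, with upregulated genes to the right (red) and downregulated genes to the left (blue). The numbers in brackets give listed members of those found in any of the 8 tables. Amino acid and nucleotide metabolism has 8 downregulated and 0 upregulated genes, and the neuroactive receptor and calcium list has 10 downregulated and 3 upregulated genes.

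Some genes were listed for impurity S in the direction opposite to that in every other table that named them. Of the 243 genes of impurity S that at least 3 other tables named, 13 were of this kind. *iscub*, the scaffold on which iron-sulfur clusters are built, the ribosomal protein gene *rps2*, and *rrbp1b*, a ribosome-binding protein of the ER, were upregulated for impurity S and downregulated for all 7 other compounds. *riok2*, a kinase of small subunit maturation, was upregulated against 6 tables, and *srsf3b*, a splicing factor, and *actb1* each against 5. *rpl34* and *uba1*, the enzyme that activates ubiquitin, were upregulated against 4 tables, and *impa1*, an inositol phosphatase, and *pag1*, a membrane adaptor, against 3. *gata6*, a transcription factor of endoderm and liver, was downregulated for impurity S and upregulated for impurities J, I, Q, and L. *cat* and *serpina1* were downregulated for impurity S and upregulated in 3 other tables each. Since the other 7 comparisons use the same DMSO library, their agreement with each other is not independent evidence, and the sizes of these differences are not in the tables.

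**Figure D4:**
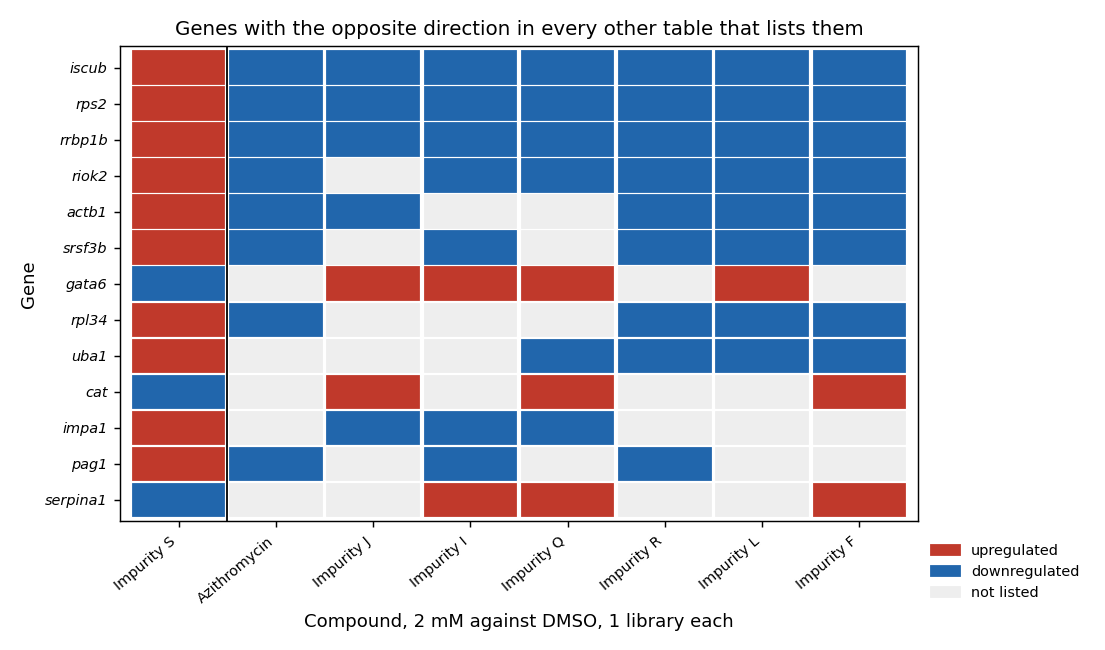
The 13 genes listed for impurity S (left column) in the direction opposite to every other table that lists them, at least 3 tables each, with all compounds at 2 mM against the same DMSO library and 1 library per compound. Red is upregulated, blue downregulated, and grey not listed. *iscub*, *rps2*, and *rrbp1b* are red for impurity S and blue in all 7 other columns.

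The shape of the table bears on how the term shares read. Of the 894 rows, 336 held a single gene and 234 held at least 5, and the rows contained 486 distinct sets of genes. Among the 234 larger rows, 49, or 20.9%, held more than 11.6% of their background genes, which is 2 times the background share. No larger row was entirely upregulated and 5 were entirely downregulated, among them Gluconeogenesis, Glucose metabolism, Biological oxidations, and Phase II conjugation. Glucose metabolism contains all genes listed in Gluconeogenesis, and Biological oxidations all those of Phase II conjugation. Proteasome subunits filled many rows, since *psma6b*, *psmb7*, and *psme4b* together stood in 156 rows, or 17.4%, and 32 rows held no other gene. *psma6b* and *psme4b* were upregulated and *psmb7*, a catalytic subunit, was downregulated, so those rows say little about a direction. Next in number of rows were *pik3r1* with 89, *camk2d1* with 88, and *grin2ab* with 73, and the median gene stood in 4 rows.

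**Figure D5:**
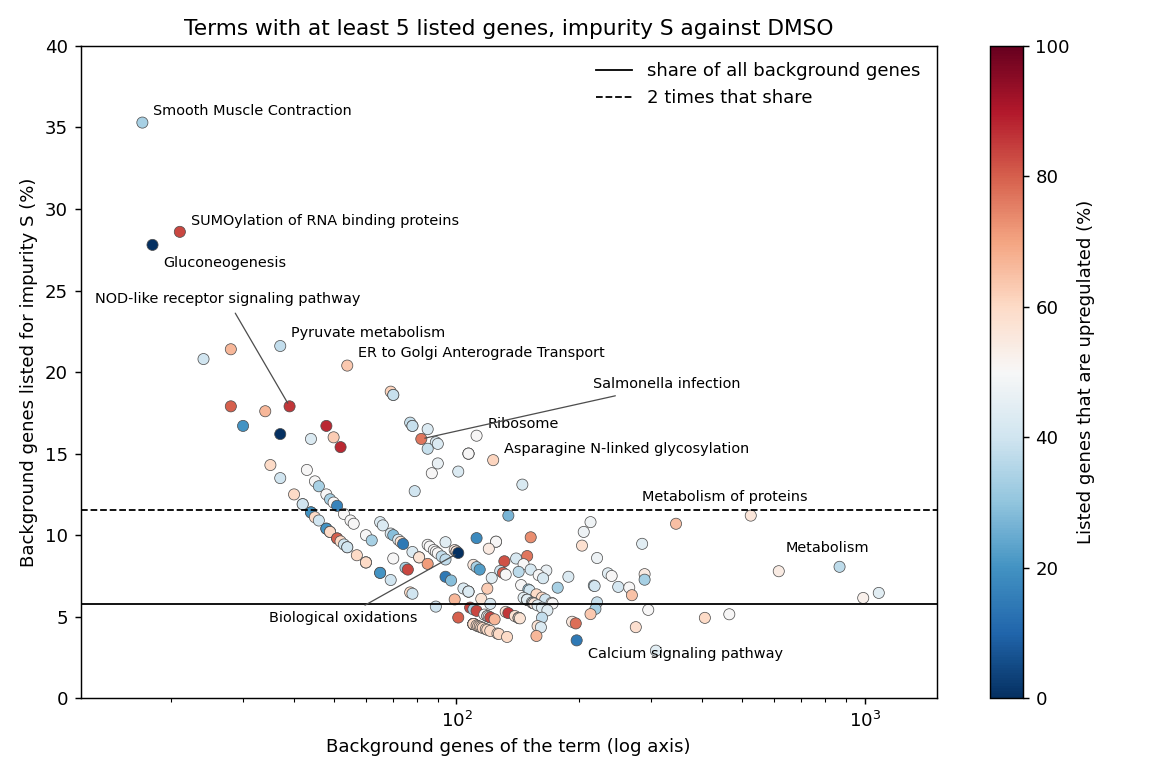
Share of background genes listed for impurity S (percent) against the number of background genes (log axis) for the 234 terms with at least 5 listed genes. Each point is a term, colored by the share of its listed genes that are upregulated, and the lines mark the background share of 5.78% and 2 times that share. Smooth Muscle Contraction lies highest at 35.3%, and Gluconeogenesis at 27.8% is entirely downregulated.

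Some duplicated genes had copies in opposite directions and some did not. Of 8 pairs matched by symbol, 5 were opposite and 3 had the same direction. *mylpfa* and *mylpfb*, *psma6a* and *psma6b*, and *ap2m1a* and *ap2m1b*, which encode the same clathrin adaptor subunit, were listed in opposite directions. The chitinase gene *chia.2* was opposite to *chia.1* and *chia.3*, which were downregulated together. The cathepsin pair *ctsl.1* and *ctsla* and the filamin pair *flnca* and *flncb* were upregulated together. So were the aldehyde dehydrogenases *aldh9a1a.1* and *aldh9a1b*, which are not among the 8 pairs. As the treatment of reads that match both copies is not given in the sources used here, the directions of such pairs are uncertain.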

How the data were processed

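RNA from 1 dissected-liver library per condition was sequenced and processed for the authors by a company. The submitters' processing notes name FastQC, fastp, HISAT2, and the GRCz11 build; the counter, annotation, and pathway tool are not given in the sources used here. Genes passed at a fold change of 2 by the authors' methods, which state it for upregulated genes and give no test for single genes. The authors' deposited tables give gene numbers per term, gene and background frequencies as a fraction, each term's p-value before and after correction, and the genes with their direction. The authors' p-values are not reported here and were used only to recover the totals behind the table, 1058 genes of 18311, at a tolerance of 1e-06. On data simulated with the same p-value formula, this search recovered 5 of 5 tables, which checks the search alone.

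Genes were matched by Entrez identifier, of which 426 of 427 were in RefSeq, and 11 had no symbol in the file. A term's share is its listed genes over its background genes, for terms with at least 5 listed genes, and was set against the share of all background genes. The 29 gene lists count members by direction over members named in any table; 18 matches of another function were taken out. Named were list members, genes opposite to every other table naming them (at least 3), leading genes of the terms with the highest shares, genes in no other table, and genes the study uses; the genes of digestion and transport were named after their values were seen. Terms overlapping a higher one with a Jaccard index over 0.6 were passed over in the choice of the highest. The terms with 1 direction among their genes, and the innate, RNA, and signaling terms, were likewise chosen with their values in view. The members, lists, and markers were chosen with earlier results of these data known. No test was run, since there was 1 library per condition and a shared DMSO library. Alternatives were single databases, symbol matching, at least 2 rows per gene, other term sizes and thresholds, and, added after seeing the data, printed gene and term pairs as background and unfiltered list matches. A few genes and terms are not reported here. Depth is unknown, so no interval was computed. Python 3.11.15, numpy 2.4.6, scipy 1.17.1, and matplotlib 3.10.9 were used.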

Additional observations from a re-analysis of the deposited data

Results flagged for a closer look

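Each of the following genes was listed for impurity S in one direction and, in every other compound table that named it, in the other direction, and the difference was not tested. The upregulated genes were *iscub*, *rps2*, and *rrbp1b*, each opposite in 7 tables, *riok2*, opposite in 6, *actb1* and *srsf3b*, opposite in 5, *rpl34* and *uba1*, opposite in 4, and *impa1* and *pag1*, opposite in 3. The downregulated genes were *gata6*, opposite in 4 tables, and *cat* and *serpina1*, opposite in 3. The tables compared share 1 DMSO library, and each compound has 1 library.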

How the results depend on the processing

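The number of genes depended on the database. The 427 listed genes (208 upregulated, 219 downregulated) were 255 (117 and 138) in Reactome rows alone and 24 (8 and 16) in PANTHER rows alone, against 311 (149 and 162) in KEGG rows alone, and fewer rows are the construction of these settings. Terms past 2 times the background share numbered 49 with at least 5 listed genes, 90 with at least 3, 22 with at least 10, and 13 at 3 times the share. Against the printed gene and term pairs of each database, a background added after seeing the data, the number was 35. The 174 list members listed were 101 in Reactome rows and 18 in PANTHER rows. The net number of upregulated genes changed sign in 3 of 77 values over 24 lists: cytosolic ribosomal proteins went from 1 to -3 in Reactome rows and to -1 with unfiltered list matches, and histones and chromatin went from -1 to 1 in KEGG rows. No paired analysis was possible because each condition had 1 library, and for the same reason no library could be left out. Depth is unknown, and a gene without a row may lie under the threshold or outside the databases.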

Other observations

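DNA repair genes were listed in both directions for impurity S. The Reactome term DNA Repair held 7 of 121 genes, or 5.79%, about the share of all background genes. *fen1*, which trims flaps at DNA ends, *ercc5*, a nuclease of nucleotide excision repair, and *xrcc4*, which joins broken ends, were upregulated, and *eme1*, *msh3*, and *ube2ia* were among the downregulated genes. Of the 20 cell cycle and replication genes found in any table, 3 were listed, or 15.0% against 37.0% of all genes. *anapc1* and *ran* were upregulated and *orc1* was downregulated. The clock gene *per1b* was upregulated for impurity S and for impurities Q and R.

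Sphingolipid and ganglioside genes were listed in both directions. The ceramidase *asah2*, the sialidase *neu3.3*, and the sialyltransferase *st3gal5* were downregulated, whereas *sgpl1*, the lyase that ends sphingolipid breakdown, was upregulated for all 8 compounds and *sptssb*, a subunit that stimulates the first step of sphingolipid synthesis, for impurity S alone. Antioxidant genes were divided, with the peroxiredoxin *prdx1* upregulated and *cat* and the heme oxygenase *hmox2a* downregulated.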
